A study of Mus musculus with 30 samples.

Results

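The collagen chain genes of cultured mouse extraocular muscle were followed over 48 h. A gene was a member where a probe set carried a single platform symbol made of Col, a type number, the letter a and a chain number. The rule found 82 probe sets of 42 genes among the 45265 probe sets of the Affymetrix array pair, with 58 of them on A arrays and 24 on B arrays. In all, the pair named 18194 genes by a single symbol. Extraocular muscles turn the eyeball. Total RNA of the cultures was taken at 0, 4, 12, 24 and 48 h, and 3 A arrays and 3 B arrays were run at each time. The labels give mouse as the species and name no strain, genotype, age or treatment. What 0 h refers to is not stated, nor whether each replicate was its own culture, nor whether same-numbered A and B arrays shared an RNA, so p-values here reflect array-to-array spread that could be purely technical. On the B type, replicate 1 at 0 h was titled extraocular muscle but carried leg muscle as its source name; it was kept under its title, and the B array changes named below are given with and without it.

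Collagens are trimers of alpha chains, each encoded by its own gene. Fibrillar collagens assemble into the rope-like fibrils that bear tension in the connective tissue around muscle fibres, type IV collagen forms the sheet of the basement membrane that wraps each fibre, and further families link fibrils, form beaded filaments or span the cell membrane. In skeletal muscle, fibroblasts of the connective tissue make most of the fibrillar chains, and muscle cells add chains of their own.

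Before testing, probe sets with a mean intensity over all arrays below the 40th percentile of their type were set aside, an intensity of 101 for A and 199.6 for B. Past this filter were 42 collagen probe sets of 28 genes. They comprised 11 of 18 probe sets of the fibrillar chains (types 1, 2, 3, 5 and 11), 7 of 15 of the basement membrane chains (types 4, 15 and 18) and 24 of 49 of the other chains. The 14 genes with no probe set past the filter were Col1a1, Col4a3, Col4a4, Col4a6, Col6a5, Col9a2, Col9a3, Col10a1, Col11a2, Col13a1, Col15a1, Col17a1, Col20a1 and Col24a1. Their mean intensities lay between 2.70 and 93.8 on A arrays and between 33.0 and 188.6 on B arrays. Types 24 and 27 are fibrillar by sequence but stand among the other chains here.

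The deposited intensities were scaled array by array to a fixed trimmed mean (500.2 for A, 500.1 for B), so each change is relative to its array. Intensities below are mean ± SD and changes are on the scale of log2(intensity + 16) ± SE, each from 3 arrays per time, whose number limits the precision. A probe set was called where limma's adjusted p lay under 0.05. The defining muscle markers were bright on the A arrays, with Myog, a transcription factor of muscle differentiation, at 10695 ± 3219 at 0 h and Des, the muscle intermediate filament desmin, at 4338 ± 843. Of 10 fibroblast markers, 4 passed the filter on at least 1 type and none was called at 24 or 48 h. At these times 5.56% and 6.7% of all A probe sets were called, and 0.97% and 0.933% of all B probe sets. The summed A array intensity of the 10 markers lay between 1060 and 1617 at 0 h and between 1151 and 1422 at 48 h. The fibroblast markers Dcn, Pdgfra, Thy1 and Lum were all below the filter on the A arrays, with Dcn at 12.7 ± 2.44 at 0 h. Of the same list, Fbln1 (815 ± 142 at 0 h) and Twist2 (139 ± 16.9) passed it on the A arrays, and Dcn (359.7 ± 54.9), Pdgfra (254 ± 171) and Fbln1 (1243 ± 306) on the B arrays. These B array means include the 0 h array of leg muscle source name. Without it the Pdgfra change was -1.41 at 24 h and -0.99 at 48 h, against -0.63 and -0.21 with it. The B array probe sets of Dcn, Pdgfra and Fbln1 were not called at 24 or 48 h, with or without that array. In bulk RNA, fewer cells of a type and less RNA per cell cannot be told apart.

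Collagen chain transcripts were called at 24 and 48 h, nearly all of them higher than at 0 h, and the genes were Col3a1, Col5a1, Col5a2, Col5a3, Col4a5, Col6a2, Col6a3, Col16a1, Col19a1 and Col25a1, with Col2a1 lower. At 24 h against 0 h, 7 of 31 A array collagen probe sets rose and 1 fell, where 3.23% of all 13577 probe sets tested rose, 2.33% fell and 5.56% changed in either direction. At 48 h, 10 rose and 1 fell, against 4.2% of all probe sets that rose, 2.5% that fell and 6.7% that changed. With arrays scaled to the same median, which moved the median change of all A probe sets at 48 h from 0.02 to -0.08, 340 of all A probe sets rose and 457 fell, where 570 rose and 339 fell as deposited, and 7 collagens rose and 1 fell. None of the 31 was called at 4 h, where 0.0295% of all probe sets changed, or at 12 h, where 0.368% did. At an unadjusted p below 0.05 these counts were 1 (3.23%) and 6 (19.4%), against 6.02% and 12.8% of all A probe sets. The median log2 change of the 31 was 0.07 at 4 h, 0.28 at 12 h, 0.48 at 24 h and 0.43 at 48 h, while that of all A probe sets stayed between -0.01 and 0.02. No collagen passed the test between neighbouring times, neither 12 h against 4 h, 24 h against 12 h nor 48 h against 24 h, in which 0.295%, 0.0884% and 0.626% of all A probe sets were called. The number at an unadjusted p below 0.05 was 4 (12.9%) at 12 h against 4 h, 7 (22.6%) at 24 h against 12 h and 4 (12.9%) at 48 h against 24 h, against 11.5%, 7.09% and 11.4% of all A probe sets. The counts against 0 h depended on single arrays. At 24 h they came to 5 without replicate 1 at 0 h, 5 without replicate 1 or 3 at 24 h and 4 without replicate 2 at 24 h. At 48 h they came to 7 without replicate 1 at 0 h or replicate 3 at 48 h.

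**Figure D1:**
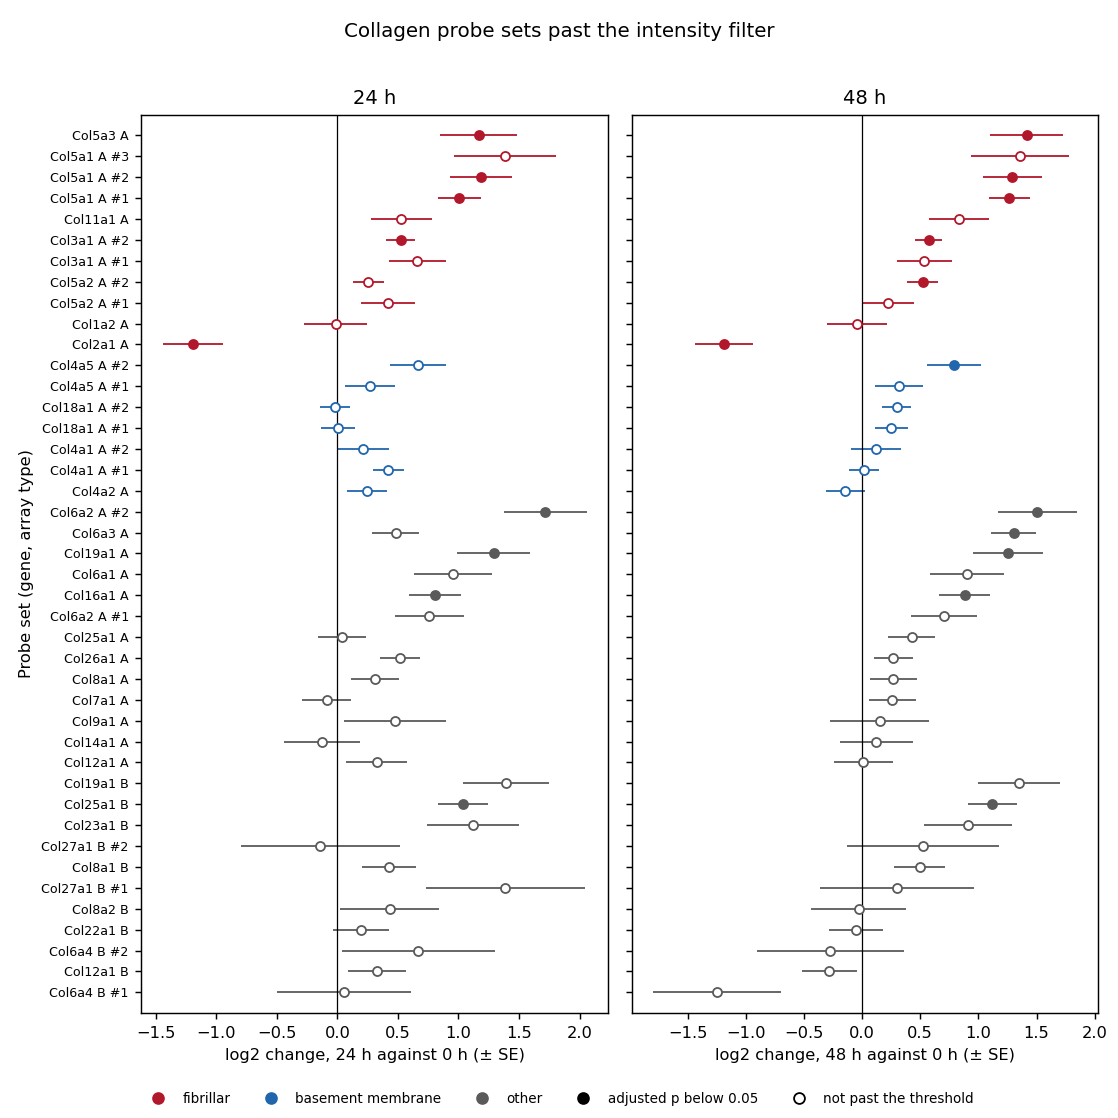
Log2 change at 24 h and 48 h against 0 h (x axis, ± SE) of each of the 42 collagen probe sets past the filter (y axis, gene and array type), coloured by group. Filled points passed limma's adjusted p of 0.05. At 48 h 10 of 31 A probe sets and 1 of 11 B probe sets are filled to the right of 0, and Col2a1 is filled to the left.

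Among the fibrillar chains, type III and type V rose. Of the 11 fibrillar probe sets tested, 4 rose and 1 fell at 24 h, and 5 rose and 1 fell at 48 h. Of all A probe sets, 3.23% rose and 2.33% fell at 24 h, and 4.2% rose and 2.5% fell at 48 h. The rises at both times included 1416740_at and 1434479_at, which are probe sets of the same gene, Col5a1. The median changes of the 11 were 0.53 and 0.57. Those that rose at 48 h belonged to Col3a1 and to all 3 type V genes, Col5a1, Col5a2 and Col5a3. Col2a1 fell, and Col1a2 was not called at any time. Col1a1, the partner chain of Col1a2 in type I collagen, lay below the filter and is given below.

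The stretch from 250 to 51 bases before the annotated start is shown for 4 members that were higher at 48 h than at 0 h. Their windows lie upstream of every annotated start, and the promoters can be compared by eye. The 4 genes did not rise at the same times. The sequences are those of RefSeq on GRCm38.p6, and 33 of the 42 genes had a promoter entry. Capitals mark each match on either strand to 4 motifs. The CCAAT box was searched with those letters and the GC box as GGGCGG. The E-box was searched as CANNTG and the AP-1 motif as TGANTCA. An E-box can overlap a CCAAT box. They lie at chr1:45311288-45311487 on the plus strand for Col3a1, chr2:27886175-27886374 on the plus strand for Col5a1, chr9:20815118-20815317 on the minus strand for Col5a3 and chr1:90844022-90844221 on the minus strand for Col6a3, each written along the gene's own strand.
Col3a1: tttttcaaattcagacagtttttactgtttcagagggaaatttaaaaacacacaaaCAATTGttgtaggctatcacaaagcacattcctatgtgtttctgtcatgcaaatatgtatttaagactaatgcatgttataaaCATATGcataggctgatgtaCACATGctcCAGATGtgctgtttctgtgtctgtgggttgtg
Col5a1: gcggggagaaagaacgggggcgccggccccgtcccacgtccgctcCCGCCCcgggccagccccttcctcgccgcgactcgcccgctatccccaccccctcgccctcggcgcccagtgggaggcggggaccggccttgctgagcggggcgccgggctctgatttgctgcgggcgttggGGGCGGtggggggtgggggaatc
Col5a3: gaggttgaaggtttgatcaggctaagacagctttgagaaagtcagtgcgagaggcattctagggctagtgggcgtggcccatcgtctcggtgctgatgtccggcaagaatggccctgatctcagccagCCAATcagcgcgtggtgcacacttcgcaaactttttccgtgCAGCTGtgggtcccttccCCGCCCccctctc
Col6a3: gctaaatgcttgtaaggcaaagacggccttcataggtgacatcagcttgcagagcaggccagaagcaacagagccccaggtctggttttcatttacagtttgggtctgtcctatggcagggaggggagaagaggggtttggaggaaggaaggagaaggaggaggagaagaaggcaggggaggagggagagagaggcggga
The windows shared little by these letters. Col3a1 held 4 E-box matches, Col5a1 held 2 GC boxes, Col5a3 held 1 CCAAT box, 1 GC box and 1 E-box, and Col6a3 held none of the 4 motifs. Among 32851 promoter windows of the same length, 28.4% held the CCAAT box, 24.6% the GC box, 59.0% the E-box and 5.57% the AP-1 motif. The GC content was 35% for Col3a1, 78% for Col5a1, 58% for Col5a3 and 55% for Col6a3, against a median of 51.5% over all windows. A match is a description of letters and was not tested against the measured changes.

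Type III collagen is a trimer of 3 Col3a1 chains and is the thin-fibril collagen of extensible tissue. Its brighter probe set (1427883_a_at) read 2179, 2425 and 2744 at 0 h, 2758, 2844 and 2812 at 4 h and 3048, 3211 and 3808 at 12 h. Later values were 3234, 3543 and 3772 at 24 h and 3772, 3247 and 3912 at 48 h. Each array at 4 h and after lay above every 0 h array. Col3a1 rose by 0.52 ± 0.12 at 24 h (limma adjusted p = 0.0153) and by 0.57 ± 0.12 at 48 h (adjusted p = 0.00732). With arrays scaled to the same median the adjusted p was 0.0504 and 0.0588, and the 24 h call was also lost without replicate 1 at 0 h or replicate 2 or 3 at 24 h (adjusted p from 0.0541 to 0.081). The dimmer probe set (1427884_at) changed by 0.66 ± 0.24 at 24 h and 0.54 ± 0.24 at 48 h and was not called (adjusted p = 0.118 and 0.212).

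Type V collagen is built into the core of type I and III fibrils and limits their width. Col5a1, its alpha 1 chain, was measured by 3 probe sets. The brightest (1416740_at) read 1024, 869 and 616 at 0 h, 814, 657 and 814 at 4 h and 1072, 1296 and 903 at 12 h. Later it read 1792, 1510.2 and 1699 at 24 h and 1891, 1789.6 and 2339.9 at 48 h. The values of 0 and 4 h overlapped, and every array at 24 and 48 h lay above every earlier one. The mean went from 836 ± 206 at 0 h to 2007 ± 293 at 48 h, a rise of 1.27 ± 0.18 (limma adjusted p = 0.000242). A further probe set of the gene (1434479_at) read 437, 513 and 269 at 0 h, 453, 376 and 413 at 4 h and 570.1, 624 and 397 at 12 h, then 845, 732 and 1229.6 at 24 h and 909, 758 and 1377 at 48 h. It rose by 1.19 ± 0.25 at 24 h and 1.29 ± 0.25 at 48 h (adjusted p = 0.0102 and 0.00437). Both probe sets kept their calls under all 24 alternatives of processing or left-out arrays. The dimmest (1416741_at) changed by 1.39 ± 0.42 and 1.36 ± 0.42 and missed the threshold (adjusted p = 0.0646 and 0.0625).

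Col5a3 encodes the alpha 3 chain of type V, which joins the other chains in a tissue-restricted trimer. Its probe set (1419703_at) read 219.7, 219 and 87.5 at 0 h, 228, 133 and 239 at 4 h and 332, 259.7 and 176 at 12 h. At the late times it read 396, 393 and 367 at 24 h and 401, 351 and 691 at 48 h. All 6 late arrays lay above all 9 earlier ones. The rise was 1.17 ± 0.32 at 24 h (limma adjusted p = 0.0396) and 1.41 ± 0.32 at 48 h (adjusted p = 0.0115). Replicate 3 at 0 h was the lowest of its time, and without it the 24 h change was 0.77 (adjusted p = 0.161). At 48 h the call was lost only without replicate 3 of that time (adjusted p = 0.0694), and the 24 h call was lost in 7 of 24 alternatives. A second Col5a3 probe set lay below the filter.

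Col5a2, the alpha 2 chain that pairs with Col5a1, was called at 48 h and not at 24 h. Its brighter probe set (1422437_at) read 3004, 3445 and 4249 at 0 h, 3650.4, 4266 and 3423 at 4 h and 3869.6, 3919 and 3922 at 12 h. It then read 4235, 3800.5 and 4663 at 24 h and 5173, 4566 and 5523 at 48 h. The 24 h arrays overlapped those of 0 h and the 48 h arrays did not. The change was 0.26 ± 0.13 at 24 h (limma adjusted p = 0.296) and 0.52 ± 0.13 at 48 h (adjusted p = 0.0224). The 48 h call was lost in 6 of 24 alternatives, among them median scaling (0.42, adjusted p = 0.115) and leaving out replicate 1 or 2 at 0 h or replicate 1 or 3 at 48 h (adjusted p from 0.065 to 0.126). The other probe set (1450625_at) changed by 0.22 ± 0.22 at 48 h (adjusted p = 0.627). In the reference gene table Col3a1 and Col5a2 are neighbours on the chromosome.

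Col2a1, the chain of the main cartilage collagen, was the member that fell. Its probe set (1450567_a_at) read 345, 285 and 354 at 0 h, 414, 316 and 369 at 4 h and 164, 262 and 184 at 12 h. At the late times it read 122, 86.2 and 222 at 24 h and 131, 124 and 150.3 at 48 h. Every array at 12, 24 and 48 h lay below every array at 0 and 4 h. The change was -1.19 ± 0.25 at 24 h and -1.19 ± 0.25 at 48 h (limma adjusted p = 0.00853 and 0.00741). The 48 h call held in all 23 alternatives in which it was tested, and the 24 h call was lost without replicate 2 at 24 h (-0.92, adjusted p = 0.0504). None of the 7 cartilage markers, among them Acan, Sox9 and Comp, passed the filter on either type. Their summed A array intensity lay between 364 and 416 at 0 h and between 357 and 552 at 48 h.

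Type I collagen, the main fibril of tendon and connective tissue, joins Col1a1 and Col1a2 chains. Col1a2 (1450857_a_at) read 137, 147 and 117 at 0 h, 116, 122 and 169.8 at 4 h and 125, 240.1 and 148 at 12 h, then 107, 109 and 194 at 24 h and 126, 154 and 108 at 48 h. The times overlapped throughout, and the changes were -0.01 ± 0.26 at 24 h and -0.05 ± 0.26 at 48 h (limma adjusted p = 0.989 and 0.945). The 95% interval at 48 h, unadjusted for the number of probe sets, ran from -0.59 to 0.50. Its other 2 probe sets lay below the filter.

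Col1a1 was dim at 0 h on both of its probe sets, and the mean of each over all arrays fell below the filter. One probe set (1423669_at) read 4.30, 3.60 and 11 at 0 h, 4.60, 2.80 and 2.90 at 4 h and 6.90, 27.9 and 10.1 at 12 h. It reached 62.6, 89.5 and 202 at 24 h and 156, 254 and 271 at 48 h. The other (1455494_at) read 37.8, 31.9 and 34 at 0 h, 42, 43.3 and 69.7 at 4 h and 82.8, 31.5 and 54 at 12 h, then 159, 102 and 209.9 at 24 h and 115, 283 and 112 at 48 h. On both, every array at 24 and 48 h lay above every array at 0, 4 and 12 h. In limma's fit without the filter, the first rose by 2.46 ± 0.36 at 24 h and 3.43 ± 0.36 at 48 h (adjusted p = 0.00159 and 4.84e-05). The second rose by 1.73 ± 0.36 and 1.76 ± 0.36 (adjusted p = 0.0165 and 0.0119). Detection calls were not used here, and the size of a change from such low intensities depends on the pseudocount. With a pseudocount of 1 to 64, with other scaling and with each array left out, the first stayed between 1.30 and 3.99 at 24 h and between 2.03 and 5.06 at 48 h and kept its calls in all 22 such fits. The second lost its 24 h call in 4 of the 22 (without replicate 1 or 2 at 0 h, or replicate 1 or 3 at 24 h) and its 48 h call without replicate 2 at 48 h (adjusted p = 0.0547). Without the filter these were the only 2 of the 27 A array members below it that were called, at either time, when 2.43% of all 22626 probe sets were called at 24 h and 3.36% at 48 h. None of the 13 B array members below the filter was called, where 0.386% and 0.462% of all probe sets were.

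Col11a1, a chain of the type XI collagen that nucleates cartilage fibrils, went from 98 ± 5.31 at 0 h to 188 ± 30.6 at 48 h. Its 48 h arrays lay above those of 0 h, and the change of 0.83 ± 0.26 was not called (limma adjusted p = 0.0613).

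**Figure D2:**
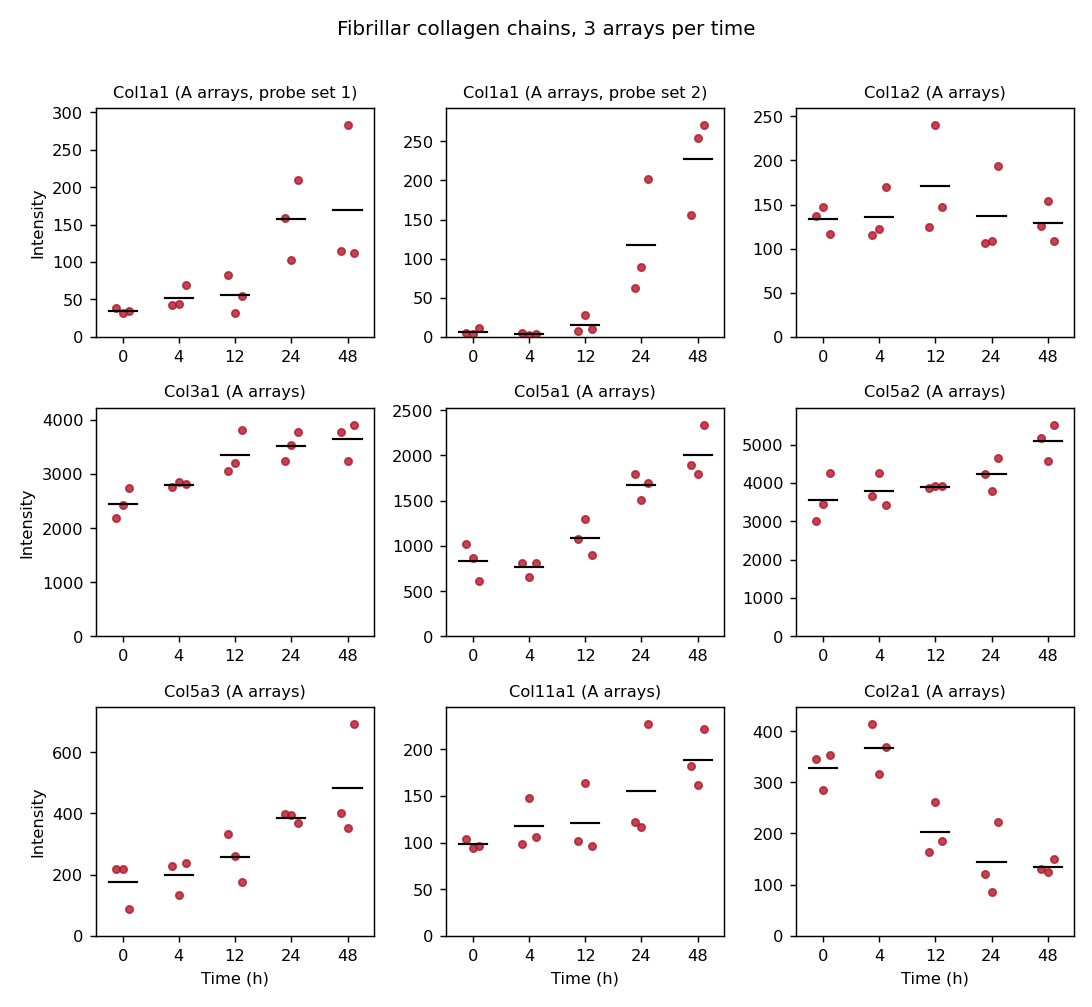
Deposited intensity (y axis, linear, from 0) of 9 fibrillar probe sets on the A arrays at 0, 4, 12, 24 and 48 h (x axis, evenly spaced). Points are the 3 arrays of a time and bars their means; Col1a1 probe sets 1 and 2 are 1455494_at and 1423669_at. Col1a1 and Col5a1 stand above all earlier arrays at 24 and 48 h, Col1a2 overlaps at all times and Col2a1 falls.

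Of the 7 basement membrane probe sets tested, 0 were called at 24 h and 1 at 48 h, where 5.56% and 6.7% of all A probe sets were. The F-test over all times called 0 of the 7 and 7.59% of all A probe sets. The median changes of the 7 were 0.25 at 24 h and 0.25 at 48 h. Col4a1 and Col4a2, whose products form the common type IV trimer, are adjacent in the reference gene table and are read in opposite directions. The brighter Col4a1 probe set (1452035_at) read 3799, 3528 and 2665 at 0 h, 3732, 2955 and 3464 at 4 h and 3201, 3365 and 3460.0 at 12 h, then 4298, 4330.5 and 4633 at 24 h and 3001, 3403 and 3623 at 48 h. The 24 h arrays lay above those of every other time, and the 48 h arrays overlapped those of 0 h. The change was 0.42 ± 0.13 at 24 h (limma adjusted p = 0.0713) and 0.02 ± 0.13 at 48 h (adjusted p = 0.961), with unadjusted 95% intervals from 0.15 to 0.70 and from -0.26 to 0.29. The other Col4a1 probe set changed by 0.21 ± 0.21 and 0.12 ± 0.21. Col4a2 (1424051_at) read 1788, 1858 and 1357 at 0 h, 2058, 1465 and 1739 at 4 h and 1719, 2029.8 and 1648 at 12 h, then 1894, 1732 and 2299 at 24 h and 1409, 1301 and 1809 at 48 h. Its times overlapped, with changes of 0.25 ± 0.17 at 24 h and -0.15 ± 0.17 at 48 h (adjusted p = 0.465 and 0.682).

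Col4a5, a type IV chain of a less common trimer, held the single call. One probe set (1425476_at) read 208, 203 and 230.3 at 0 h, 206, 342 and 230.4 at 4 h and 263, 232 and 415 at 12 h, then 290.2, 293 and 491 at 24 h and 355, 368 and 425 at 48 h. The arrays at 24 and 48 h lay above those at 0 h. It rose by 0.79 ± 0.23 at 48 h (limma adjusted p = 0.0492), a call lost in 16 of 24 alternatives, in which the adjusted p ranged up to 0.153. Leaving out any array of 0 or 48 h lost it. The other probe set (1425475_at) changed by 0.32 ± 0.21 (adjusted p = 0.428). Col18a1, the chain whose end is released as endostatin, changed by 0.30 ± 0.13 and 0.25 ± 0.14 on its 2 probe sets at 48 h (adjusted p = 0.194 and 0.339). Whether the basement membrane and fibrillar chains differed in their changes was not tested.

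Among the other chains, type VI collagen, the beaded filament that anchors muscle fibres to the surrounding matrix and whose defects cause muscular dystrophy, gave the largest called change among the collagens past the filter. The brighter probe set of Col6a2 (1452250_a_at) read 349, 502 and 187 at 0 h, 519, 278 and 472 at 4 h and 834, 1066 and 366 at 12 h. At the late times it read 1014, 1044 and 1229.5 at 24 h and 879, 1041 and 910.5 at 48 h. The late arrays lay above all 0 and 4 h arrays, and replicate 2 at 12 h was among the highest of all. Col6a2 rose by 1.72 ± 0.34 at 24 h (limma adjusted p = 0.00632) and 1.51 ± 0.34 at 48 h (adjusted p = 0.012). The 24 h call held in all 24 alternatives; the 48 h call was lost without replicate 3 at 0 h (1.14, adjusted p = 0.055). Its other probe set (1426947_x_at) changed by 0.76 ± 0.29 and 0.71 ± 0.29 without a call (adjusted p = 0.142 and 0.17).

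Col6a3, the longest of these type VI chains, was called at 48 h and not at 24 h. It (1424131_at) read 279, 377 and 242 at 0 h, 238, 315 and 274 at 4 h and 288, 487 and 342 at 12 h. It then read 472, 379 and 407 at 24 h and 645, 778 and 841 at 48 h. The 48 h arrays lay above those of every other time. The change was 0.48 ± 0.20 at 24 h (limma adjusted p = 0.178) and 1.30 ± 0.20 at 48 h (adjusted p = 0.000425), and the 48 h call held in all 24 alternatives. The step from 24 to 48 h was 0.82 ± 0.20 and was not called (adjusted p = 0.0723). Col6a1, next to Col6a2 in the reference gene table, read 1079, 1068 and 459 at 0 h, 1097, 537 and 953 at 4 h and 1451, 1476 and 740.5 at 12 h, then 1513, 1334 and 1968 at 24 h and 1367, 1732 and 1501 at 48 h. The arrays at 24 and 48 h lay above those at 0 h, and the changes of 0.95 ± 0.32 and 0.90 ± 0.32 were not called (adjusted p = 0.0961 and 0.111). On the B arrays the 2 probe sets of Col6a4 spread widely, from 111 to 1259 at 48 h, and were not called, with or without replicate 1 at 0 h (adjusted p at 48 h of 0.447 and 0.947 with it, 0.504 and 0.869 without it).

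Col16a1 and Col19a1 belong to the fibril-associated collagens with interrupted triple helices. Col16a1 (1427986_a_at) read 109, 140.5 and 123 at 0 h, 136, 123 and 128 at 4 h and 178, 203 and 129.5 at 12 h, then 249, 176 and 269.8 at 24 h and 205, 209 and 324 at 48 h. All arrays at 24 and 48 h exceeded those at 0 and 4 h. It rose by 0.81 ± 0.22 at 24 h and 0.88 ± 0.22 at 48 h (limma adjusted p = 0.0372 and 0.02). The 24 h call was lost in 8 of 23 alternatives, including the fit with the replicate number as a block (adjusted p = 0.0521), and the 48 h call without replicate 1 at 0 h or replicate 3 at 48 h (adjusted p = 0.0898 and 0.108).

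Col19a1, which is known from embryonic muscle, was measured on both types. The A probe set past the filter (1421698_a_at) read 60.9, 70.9 and 152 at 0 h, 68.9, 162 and 74 at 4 h and 132, 148 and 217 at 12 h, then 223, 272 and 224 at 24 h and 238, 239 and 217 at 48 h. The late arrays all lay above the earlier ones. Col19a1 rose by 1.29 ± 0.30 at 24 h and 1.25 ± 0.30 at 48 h (limma adjusted p = 0.0171 and 0.0175). Each call was lost in 4 of 23 alternatives: both without replicate 1 or 2 at 0 h, and each without replicate 1 or 2 of its own later time (adjusted p from 0.0536 to 0.099). On the B arrays its probe set (1456953_at) went from 361 ± 212 at 0 h to 888 ± 123 at 24 h and 878 ± 237 at 48 h. The B array changes of 1.39 ± 0.35 and 1.35 ± 0.35 missed the threshold (adjusted p = 0.091 and 0.102), and were 1.21 and 1.16 without the 0 h array of leg muscle source name (adjusted p = 0.28 and 0.299).

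Of the 11 B array collagen probe sets tested, 1 rose at 24 h and 1 at 48 h, where 0.97% and 0.933% of all 13507 probe sets changed. The F-test over all times called the same 1 of 11, and 1.02% of all B probe sets. It was Col25a1 at both times, a membrane-spanning collagen of muscle that motor axons need to innervate it. It (1438540_at) read 722, 576 and 872 at 0 h, 942, 1194 and 868 at 4 h and 1139.8, 1595 and 1420.3 at 12 h, then 1498, 1908 and 1132 at 24 h and 1438, 1767 and 1518 at 48 h. Every array at 12, 24 and 48 h lay above every 0 h array. Col25a1 rose by 1.04 ± 0.21 at 24 h and 1.12 ± 0.21 at 48 h (limma adjusted p = 0.0274 and 0.0123). Without the 0 h array that carried leg muscle as its source name the changes were 1.04 and 1.13 and neither was called (adjusted p = 0.0902 and 0.0544), and no B array collagen was then called. Without replicate 2 at 0 h they were 0.89 and 0.97 (adjusted p = 0.103 and 0.0674). The 24 h call was also lost without replicate 1 or 2 of that time and the 48 h call without replicate 2 of that time. The A array probe set of Col25a1 (1421427_at) changed by 0.04 ± 0.20 and 0.43 ± 0.20 (adjusted p = 0.949 and 0.247).

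Col8a1, a short-chain network collagen of vessel walls, was called by the F-test over all times and by no single comparison. Its A probe set (1418440_at) read 717, 668 and 699.6 at 0 h, 424, 686 and 456 at 4 h and 366, 488 and 598 at 12 h, then 683, 880.2 and 1078 at 24 h and 763, 858 and 907 at 48 h. The means at 4 and 12 h, 522 ± 143 and 484 ± 116, lay below 695 ± 24.6 at 0 h, and those at 24 and 48 h lay above it. The F-test over all times called it (limma adjusted p = 0.0218), as it did 10 of the 31 A collagens and 7.59% of all A probe sets. The B probe set (1455627_at) changed by 0.43 ± 0.22 at 24 h and 0.49 ± 0.22 at 48 h without a call (adjusted p = 0.537 and 0.462), and by 0.27 and 0.33 without replicate 1 at 0 h (adjusted p = 0.799 and 0.723). The rest of the other chains past the filter, Col6a4, Col7a1, Col8a2, Col9a1, Col12a1, Col14a1, Col22a1, Col23a1, Col26a1 and Col27a1, were called in no comparison. Their changes at 48 h ranged from -1.25 to 0.91, with both ends on the B arrays (Col6a4 and Col23a1), where they were -1.38 and 1.14 without replicate 1 at 0 h.

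**Figure D3:**
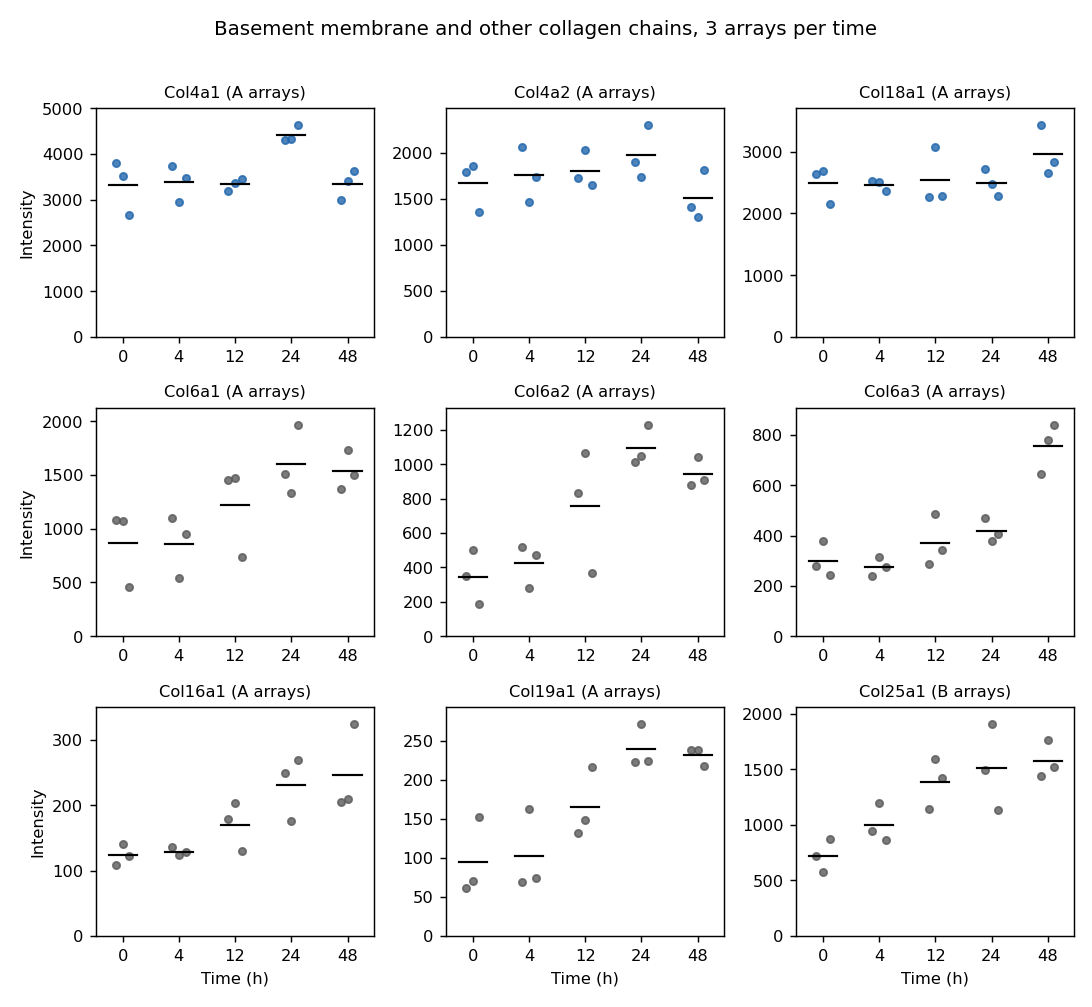
Deposited intensity (y axis, linear, from 0) of 9 basement membrane and other collagen probe sets at 0, 4, 12, 24 and 48 h (x axis, evenly spaced), on the A arrays except Col25a1, which is from the B arrays. Points are the 3 arrays of a time and bars their means. Col6a3 stands apart at 48 h, Col6a2, Col16a1 and Col19a1 are high at both late times, and Col4a2 overlaps at all times.

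At 24 h, 16 of the 31 A collagens had all 3 arrays above all 3 arrays of 0 h, against 11.5% of all A probe sets, and at 48 h 19 did, against 13.5%. Within a time, many collagens had their lowest value on the same array. Replicate 3 at 0 h was the lowest of its time for 19 of the 31, where it was the lowest for 38.0% of all A probe sets. Replicate 3 at 0 h, replicate 2 at 4 h and replicate 3 at 12 h were the lowest of their times together for 11 of the 31, against 11.3% of all A probe sets. These 11 included every probe set of Col5a1, Col5a3, Col6a1 and Col6a2 that passed the filter, so some genes were counted by several probe sets. For Col3a1, Col4a5, Col5a2 and Col19a1, by 1 probe set each, the same 3 arrays were the highest of their times, as they were for 12.0% of all A probe sets. The summed intensity of 9 muscle markers was also lowest on these arrays, at 34863 against 49549 and 50460.3 at 0 h. At 4 h it was 30844 against 48615 and 53608, and at 12 h 41005 against 55688 and 56978. The mural and Schwann cell marker sums were lowest on the same 3 arrays. The fibroblast, endothelial, immune and cartilage sums were not lowest on all 3. The fibroblast sum was lowest on replicate 3 at 0 h (1060) and in the middle on replicate 3 at 12 h (1422). On replicate 2 at 4 h it was the highest of its time (1472 against 1176.5 and 1287), as was the immune sum (647 against 435 and 630). At 24 and 48 h the muscle sum was lowest on replicate 3 (41455 and 38632.5), which was the lowest of its time for 4 and 3 of the 31 collagens. The part of these marker sums in the collagen changes was not tested.

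Markers of mural cells, the smooth muscle cells and pericytes of vessel walls, were in part called at the same times. Of 9 listed, 7 passed the filter and 4 rose at 24 h and at 48 h, namely Tagln, Mcam, Pdgfrb and Notch3. Acta2, Rgs5 and Cspg4 also passed the filter on the A arrays and were not called there at 24 or 48 h. Of all A probe sets, 3.23% rose at 24 h and 4.2% at 48 h. Notch3 was also called at 12 h (0.90 ± 0.16, limma adjusted p = 0.0294), and its 48 h call was lost in 14 of 24 alternatives, among them no filter, quantile normalization, median scaling and the replicate block. Single arrays decided some of the others: the 48 h call of Tagln was lost without replicate 1 or 2 at 0 h or replicate 3 at 48 h, that of Mcam without replicate 1 at 0 h or replicate 3 at 48 h, and the 24 h call of Mcam without replicate 1 at 0 h. Acta2 on the B arrays was called at 24 h when replicate 1 at 0 h was left out (2.63, adjusted p = 0.0463, against 1.88 and 0.204 with it). Pdgfrb, a growth factor receptor also made by connective tissue cells, went from 414 ± 103 at 0 h to 1111 ± 137 at 24 h, a rise of 1.41 ± 0.18 (limma adjusted p = 0.000204). The smooth muscle genes Myh11 and Cnn1 lay below the filter, at 11.6 ± 11.5 and 21.8 ± 13.3 at 0 h. The summed intensity of the list, most of it Acta2, ranged from 12438 to 18873 at 0 h, from 18571 to 19971 at 24 h and from 15858 to 18276 at 48 h. Of 8 endothelial markers 2 passed the filter, of 7 Schwann cell markers 3 and of 8 immune markers 3. None of these was called at 24 or 48 h, where 5.56% and 6.7% of all A probe sets were. Of 9 muscle markers 8 passed the filter, of which Myh3 rose at 24 h and Myod1 fell at 48 h. Of all A probe sets, 3.23% rose at 24 h and 2.5% fell at 48 h. The Myh3 call was lost without replicate 1 at 0 h or replicate 1 or 2 at 24 h, and the Myod1 call without replicate 1 or 2 at 0 h or replicate 1 or 3 at 48 h. What part other cells had in the collagen changes was not tested.

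Genes that make, link, hold or degrade collagen were described by 5 lists. Among 5 lysyl oxidases, which cross-link fibrils, 4 passed the filter and 2 rose at 24 h and at 48 h. At these times 3.23% and 4.2% of all A probe sets rose. Lox went from 393 ± 14 at 0 h to 1045 ± 446 at 24 h and 1204 ± 747 at 48 h, a rise of 1.41 ± 0.31 at 48 h (limma adjusted p = 0.0108). Its 48 h call held in all 24 alternatives, and its 24 h call was lost without any 1 of the 0 h arrays or replicate 3 at 24 h. Loxl1 was at 1582 ± 159 at 0 h and 3187 ± 303 at 48 h, and it kept both calls in all alternatives. Of 24 genes that modify, fold or trim procollagen, 19 passed the filter. At 24 h and at 48 h 1 of the 19 rose, a share near the 3.23% and 4.2% of all A probe sets. It was P4ha1, a subunit of the prolyl hydroxylase that stabilises the triple helix. It changed by 0.66 ± 0.16 at 24 h and 0.55 ± 0.16 at 48 h (adjusted p = 0.0208 and 0.0465), calls lost in 4 and 16 of 24 alternatives. The median change of these 19 at 48 h was 0.05, and that of the lysyl oxidases was 0.60.

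Serpinh1, the collagen chaperone, read 6545 ± 1046 at 0 h and 7371 ± 1060.1 at 48 h and was not called (limma adjusted p = 0.536). Of 14 proteins that bind or space fibrils 5 passed the filter, and 1 rose at 24 h, where 3.23% of all A probe sets did. Sparc, a matrix protein that binds collagen, rose at 24 h by 0.66 ± 0.18 (adjusted p = 0.0377), a call lost in 8 of 24 alternatives, while its B array probe set changed by 0.01 ± 0.20, or 0.04 without replicate 1 at 0 h. Of all A probe sets, 5.56% were called at 24 h and 6.7% at 48 h. None of the 5 collagen receptors tested and none of the 4 collagenases and related proteases tested was called at either time. Among them Ddr2, a receptor tyrosine kinase for fibrillar collagen, changed by 0.43 ± 0.16 at 48 h on the A arrays (adjusted p = 0.119), and Mmp14, a membrane collagenase, by -0.16 ± 0.11 (adjusted p = 0.447).

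**Figure D4:**
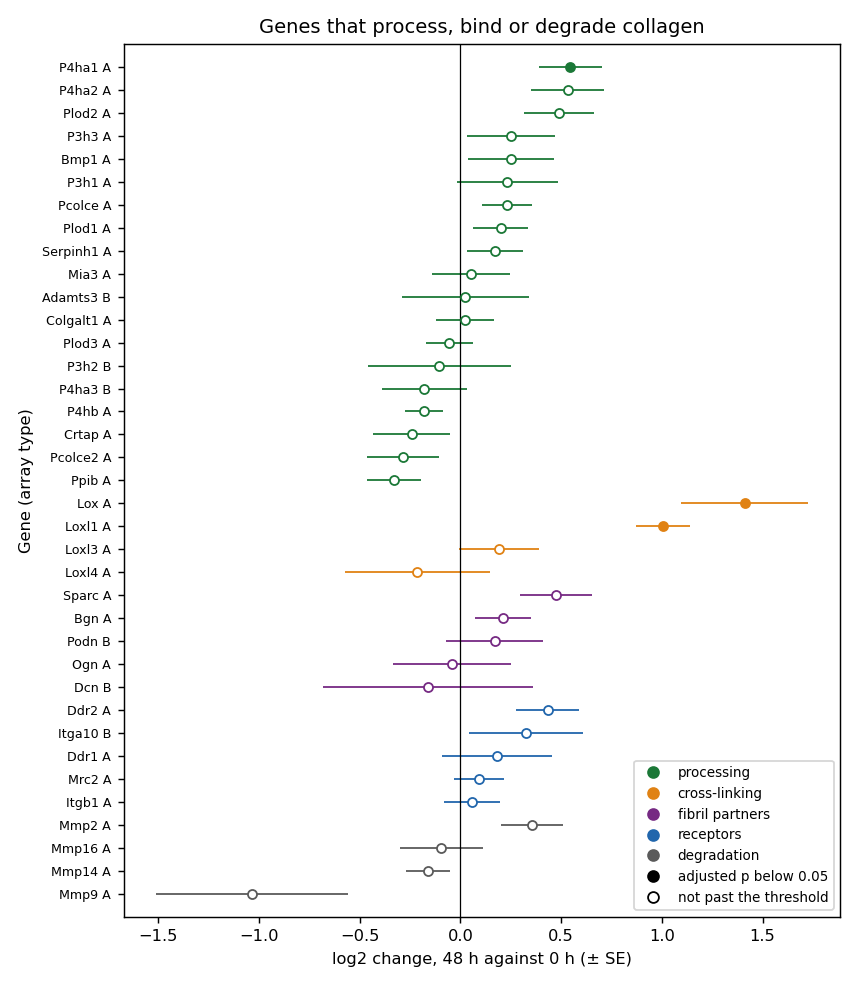
Log2 change at 48 h against 0 h (x axis, ± SE) of genes that process, cross-link, bind, sense or degrade collagen and passed the filter (y axis, gene and array type), coloured by list. Filled points passed limma's adjusted p of 0.05. Lox, Loxl1 and P4ha1 are filled, all to the right of 0.

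The genes most like the called fibrillar chains over the 15 A arrays were found by correlation with the mean log2 value of the 5 called fibrillar genes, Col2a1, Col3a1, Col5a1, Col5a2 and Col5a3. These genes were chosen by their change on the same arrays, and Col2a1 entered the mean although it fell while the others rose. Col1a1, Col1a2 and Col11a1 were not in it. Pearson's r, given as a description because the arrays share times and scaling, was 0.93 for Lox, 0.91 for Nupr1, 0.90 for Ndrg1, 0.90 for Tsc22d3 and 0.90 for Clic4. Lox was also on the list of lysyl oxidases. Ndrg1 went from a mean of 74.1 at 0 h to 745 at 48 h and Nupr1 from 322 to 1083.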

How the data were processed

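Total RNA from cultured mouse extraocular muscle had been measured on Affymetrix A and B arrays, by a standard Affymetrix protocol per the labels. Software, background correction, summary method and genome build: not given in the sources used here. Each deposited value is the linear intensity of a probe set, and the authors had scaled each array, as a fixed trimmed mean (2% off each end) in every deposited column shows. Precision is limited by the number of arrays. Names came from the platform annotation. Members kept its symbols, and the partner and marker lists were matched to symbols updated to RefSeq's GRCm38.p6 gene table. By the rule for members, none had several symbols.

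Values were analysed as log2(intensity + 16), which understates changes of dim probe sets. Without 64 control probe sets per type and those below the 40th percentile of mean intensity, 13577 A and 13507 B probe sets were fitted with limma 3.58.1 (lmFit, eBayes with an intensity trend, R 4.3.3), 1 mean per time over all 15 arrays of a type. Adjustment followed Benjamini and Hochberg over all probe sets of a type, within each of 7 comparisons and an F-test, with a threshold of 0.05. The scripts were tested on simulated arrays. Values in every array are given for each collagen probe set that was called, and for the main type I, III, IV and VI chains, by the brightest probe set; up to 4 called genes of each further list, and 5 genes correlated with the called fibrillar genes, could be named. Serpinh1, Ddr2, Mmp14 and the markers below the filter were named after their values were seen. The members and lists were chosen with earlier results of these data known. Alternatives were other pseudocounts (1 and 64), no filter or a 60th percentile filter, quantile normalization, median scaling, no intensity trend, only the times compared, the replicate number as a block and each array left out in turn; fits of Col1a1 without the filter under each of these, and the alternatives for partner and marker genes, were chosen after seeing the data. Figures were drawn with matplotlib 3.10.9.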

Additional observations from a re-analysis of the deposited data

How the results depend on the processing

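Of 21 collagen calls at 24 or 48 h, 7 held in every alternative in which they were tested and none reversed: both Col5a1 probe sets at both times, Col6a2 at 24 h, and Col6a3 and Col2a1 at 48 h. The 60th percentile filter left 5 of the 8 A array calls at 24 h, since the called probe sets of Col2a1, Col16a1 and Col19a1 fell below it and were not tested. With only the compared times fitted, 1 A array collagen was called at 48 h against 24 h and 0 on the B arrays at 24 h. Without the intensity trend 0 B array collagens were called at 24 h and 0 in the F-test, and without a filter 0 in the F-test. Leaving out 1 array at a time gave 0 to 1 A array collagens at 12 h, 4 to 9 at 24 h, 7 to 12 at 48 h and 0 to 1 at 48 h against 24 h, and 0 to 2 B array collagens at 24 h, at 48 h and in the F-test. The 1 call at 12 h came without replicate 3 of that time, and the 1 at 48 h against 24 h without replicate 2 at 12 h. Except for the 60th percentile filter, the cause of these shifts was not tested.

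With the replicate number as a block, 7 A array collagens were called at 24 h, 11 at 48 h and 0 B array collagens in the F-test. Arrays of the same number deviated together in 10 of 30 pairs of A arrays and 1 of 30 of B arrays. These had correlations over 0.1, and all pairs ranged from -0.36 to 0.42 and from -0.1 to 0.11. No such count was made for arrays of different numbers, so these values cannot show whether the numbers pair the samples. The main fit used no pairing.

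Over all A probe sets the count at 24 h was 755, ranging from 358 (without replicate 1 at 24 h) to 846 over the alternatives, and at 48 h 909, ranging from 526 (without replicate 1 at 0 h) to 1006. On the B arrays it was 131 at 24 h, ranging from 24 (without replicate 2 at 24 h) to 148, and 126 at 48 h, ranging from 74 (without replicate 1 at 0 h) to 147. Median scaling turned the split of higher against lower A calls at 48 h from 570 and 339 to 340 and 457 and left 7 collagens higher and 1 lower; quantile normalization gave 491 and 379, with 9 higher and 1 lower.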

Other observations

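Col8a1, Col12a1, Col19a1 and Col25a1 have probe sets past the filter on both array types. Over these 4 genes and the 5 times, the same replicate number was the highest of its time on both types in 13 of 20 cases: 4 of 5 times for Col19a1 and for Col25a1, 3 for Col12a1 and 2 for Col8a1. At 0 h, Col19a1 was highest in replicate 3 on the A arrays (152 against 60.9 and 70.9) and on the B arrays (605 against 249 and 228), and at 48 h in replicate 2 on the A arrays and replicate 1 on the B arrays. Col8a1 was highest in replicate 2 at 4 h and in replicate 3 at 12 h on both types, and in different replicates at 0, 24 and 48 h. The labels do not say whether arrays of the same number held the same RNA. The count of 13 cannot answer this, because the 4 genes were read on the same arrays and no share over all genes on both types was computed.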
